A study of Mus musculus with 2 samples.

Results

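The inner root sheath keratins are the 7 genes Krt25, Krt26, Krt27, Krt28, Krt71, Krt72 and Krt73. They were taken by gene symbol from the array's annotation, and each had 1 probe set naming that gene alone, out of 18193 genes with such a probe set. All 7 probe sets were bright on both arrays, and 0 differed by 2-fold or more between follicles of dnFGFR2-IIIb transgenic mice and follicles of wild-type mice. The ratio of transgenic to wild-type signal lay between 0.829 for Krt72 and 1.046 for Krt71.

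Keratins form the intermediate filaments of epithelial cells, and each filament is built from pairs of 1 acidic type I and 1 basic or neutral type II protein. Krt25 to Krt28 are type I and Krt71 to Krt73 are type II. They belong to the inner root sheath, the sleeve of hardening cells that surrounds the growing hair shaft, moulds it and is broken down before the hair leaves the skin. The sheath consists of the Henle layer, the Huxley layer and a cuticle that interlocks with the cuticle of the hair. Inherited changes in Krt25 and in Krt71 give mice a wavy coat. Fgfr2-IIIb is the splice form of fibroblast growth factor receptor 2 carried by epithelial cells, which receive FGF7 and FGF10 from the neighbouring mesenchyme.

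The study compared 2 arrays, 1 per group, to find targets of this receptor in the hair follicle. One group was wild type and the other carried the dnFGFR2-IIIb transgene, for which the labels name neither the promoter nor the cells that express it. Each array received total RNA of about 300 hair follicles, about 100 from each of 3 mice of separate litters, at postnatal day 10. With 1 pool per genotype there is no replicate, the spread between mice is hidden, and no difference has a p-value. The sample is also a bulk one, so that fewer cells of a type and less RNA per cell cannot be told apart.

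Across the series, a floor of 10.5, below which signals were treated as background, was exceeded by 58.7% of probe sets in wild-type and 61.3% in transgenic follicles. The ratio of 3' to 5' signal of beta-actin, a measure of RNA integrity, was 1.89 and 2.06. The pools differed in sex-linked RNA. In wild-type and then transgenic follicles, Xist, the RNA that silences an X chromosome, read 352 and 1146, and the Y-linked Eif2s3y read 191 and a value below the floor. The part of this difference in the keratin values was not tested.

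The 60 bases before each annotated start are shown because nearly all of the 7 genes hold the letters TATAAA there. These are the letters of the TATA box, an element that can set where transcription begins. Whether the matches act in this way was not tested. The bases are from RefSeq promoters of build GRCm38.p6, which held all 7 genes, all on the minus strand. They are written 5' to 3' along the gene. Capitals mark TATAAA or, in Krt72, TATTTAAG, which was chosen after the sequence was seen. The windows are chr11:99322952-99323011 for Krt25, chr11:99337966-99338025 for Krt26, chr11:99351119-99351178 for Krt27, chr11:99374904-99374963 for Krt28, chr15:101743098-101743157 for Krt71, chr15:101786521-101786580 for Krt72 and chr15:101802361-101802420 for Krt73.
Krt25: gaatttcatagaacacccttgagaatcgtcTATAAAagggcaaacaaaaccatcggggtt
Krt26: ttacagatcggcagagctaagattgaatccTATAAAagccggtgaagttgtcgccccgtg
Krt27: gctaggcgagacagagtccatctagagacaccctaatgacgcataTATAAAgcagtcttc
Krt28: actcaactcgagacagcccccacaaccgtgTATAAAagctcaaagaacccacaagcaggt
Krt71: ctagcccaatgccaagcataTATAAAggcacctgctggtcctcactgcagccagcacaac
Krt72: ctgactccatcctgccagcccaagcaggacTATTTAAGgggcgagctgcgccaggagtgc
Krt73: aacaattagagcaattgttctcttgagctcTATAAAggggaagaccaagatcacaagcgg

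On the gene strand of this window TATAAA occurred in 6 of the 7 genes, and in 2.87% of the 32851 RefSeq promoter windows of the same length. It began 30 bases before the start in Krt25, Krt26, Krt28 and Krt73, 40 bases before it in Krt71 and 15 bases before it in Krt27. Krt72 was the exception, with TATTTAAG beginning 30 bases before the start, a run found in 0.164% of promoters. Over the whole 300 bases, from 250 before to 50 after the start and on both strands, TATAAA was present in 7 of 7 genes and in 13.6% of promoters. AGATAA, a core recognised by GATA factors, was present in Krt25, Krt27, Krt71 and Krt73 and in 11.2% of promoters. CTTTGA, a core recognised by LEF1 and TCF factors, was present in Krt28 and in 16.0% of promoters. None of these 3 motifs contains another, and a match is a description of letters, not of binding.

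The longest run of bases shared before the start was sought in each of the 21 pairs of genes. For Krt27 and Krt71, which are of different types, it was 12 bases. The longest of all was 14 bases, between Krt71 and Krt73. It was TTGCAAGCCCAGCA, and of all 32851 promoters it occurred in 2, those of these genes. As the run was picked from these same promoters, its presence in both genes was fixed by the choice. The surrounding bases, at chr15:101743251-101743303 for Krt71 and chr15:101802471-101802524 for Krt73, are shown because a second shared run follows at nearly the same distance. Capitals mark runs of at least 10 bases present in both genes.
Krt71: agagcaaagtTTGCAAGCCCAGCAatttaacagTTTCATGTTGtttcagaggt
Krt73: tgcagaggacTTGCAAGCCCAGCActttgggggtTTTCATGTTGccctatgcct

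Among the type I keratins, Krt25 read 12444 in wild-type and 12714 in transgenic follicles, a log2 ratio of 0.03. Krt27 read 9585 and 9643, a log2 ratio of 0.01, and Krt28 read 7011 and 6752, a log2 ratio of -0.05. These genes, together with Krt71, are described in all layers of the sheath. Krt26, described in the sheath cuticle alone, read 4750 and 4287, which is 9.76% lower, with a log2 ratio of -0.15. Levels are compared here for 1 probe set between arrays, and the order of different probe sets on an array is not an order of RNA amounts.

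Among the type II keratins, Krt71, the partner that spans all layers, read 9727 in wild-type and 10169 in transgenic follicles, a log2 ratio of 0.06. Krt72, a cuticle keratin, read 7208 and 5973, which is 17.1% lower, with a log2 ratio of -0.27, the lowest of the 7. Krt73, also a cuticle keratin, read 6421 and 6419, a log2 ratio of 0.00. In the human genome a further type II gene of the sheath, KRT74, serves the Huxley layer. In the mouse annotation Krt74 lies between Krt71 and Krt72 and is a transcribed pseudogene, and no probe set named it here.

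**Figure D1:**
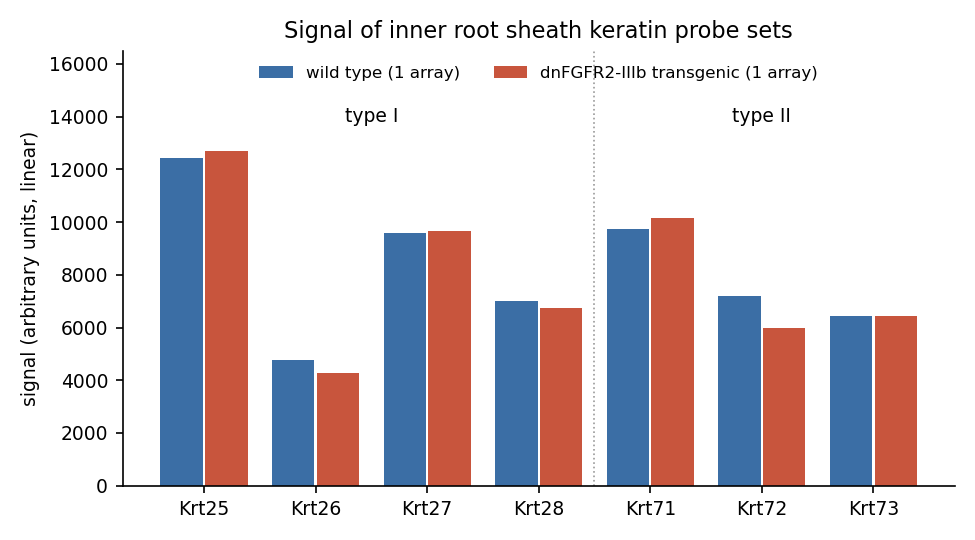
Signal of the probe set of each inner root sheath keratin, in arbitrary linear units, for wild type (blue) and transgenic (red), 1 array each and thus without error bars. The paired bars are close in height for all genes, with the widest gap at Krt72 (7208 and 5973), and bars of different genes are not comparable as RNA amounts.

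Of the 7 keratins, 0 passed 2-fold in either direction, against a background of 3.18% of the 11565 genes with both signals over the floor. At that background few or no calls among 7 genes would be usual, so that the count by itself says little about them. At a threshold of 1.5-fold the count was again 0 of 7, against 13.1% of these genes, most of which are dimmer, and against 0.929% of probe sets as bright as the keratins. The median log2 ratio of the 7 genes was 0.00, beside 0.01 for the 14045 genes that exceeded the floor at least once. Summed over the 7 probe sets, the signal was 57145 in wild-type and 55957 in transgenic follicles, a ratio of 0.979.

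The spread behind such ratios was judged from probe sets of the same gene. In the range of mean signal that the 7 keratins span, from 4518 to 12579, there were 28 genes with several probe sets, and their log2 ratios had an SD of 0.15 within a gene. The log2 ratios of 6 of the 7 keratins were no larger than this in size, and that of Krt72 was beyond it. This spread compares probe sets on the same arrays. It leaves out the difference between mice and any error shared by a whole array, such as that of labelling or scaling. Of all 323 probe sets in the same range of signal, 15 (4.64%) had a larger absolute log2 ratio than Krt72, and 49 (15.2%) a larger one than Krt26. Percentiles 5 and 95 of the log2 ratio in this range were -0.21 and 0.14, and Krt72 was the keratin outside them. Over genes with several probe sets at any brightness, the SD within a gene was wider. It was 0.35 in the brightest tertile of mean signal, 0.37 in the middle and 0.49 in the dimmest. The SD of 0.15 therefore does not apply to dimmer genes.

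Brightness could limit what these ratios show. Krt25 stood at 89.1% of the highest wild-type signal and 85.8% of the highest transgenic signal, with 5 and 7 probe sets brighter. The other 6 keratins stood between 28.9% and 69.7% of the maxima. Of the 323 probe sets in the range, 3 (0.929%) were at least 2-fold apart. They were Krtap19-2, a keratin-associated protein of the hair shaft (9585 and 4722, log2 ratio -1.02), Rps10, a ribosomal protein (6163 and 3041, -1.02), and Ighm, an immunoglobulin heavy chain (20.7 and 10145, 8.94), named after their values were seen. Of these 3, Krtap19-2 alone had both signals above 4518, the lowest mean of a keratin, while the others entered the range through the array where they were bright. Whether ratios were compressed at this brightness was not tested.

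**Figure D2:**
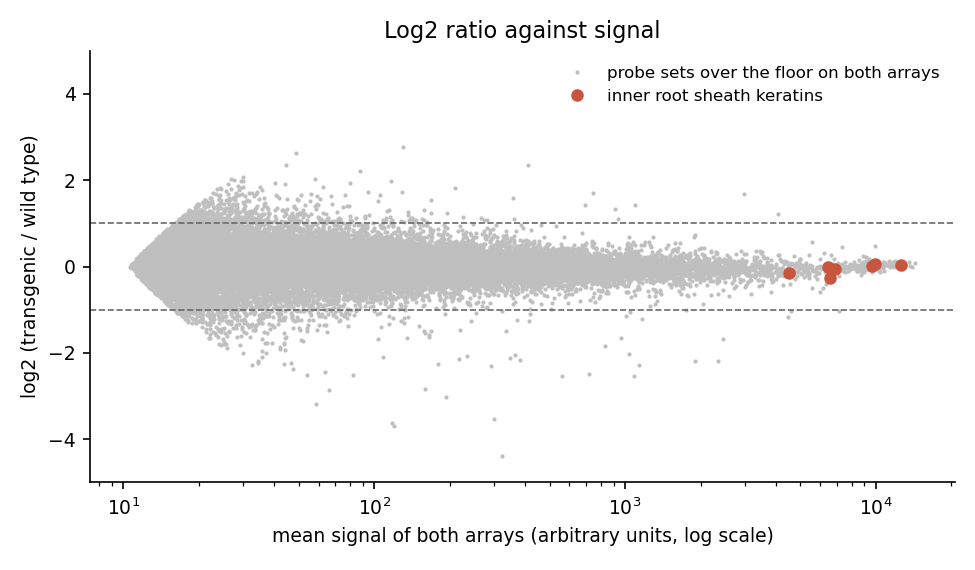
Log2 ratio of transgenic to wild type against the mean signal of both arrays (log scale) for all probe sets with both signals over the floor (grey), with the 7 inner root sheath keratins in red and dashed lines at 2-fold; 2 probe sets lie outside the plotted range. The cloud narrows towards high signal, and the keratins lie within its bright end, between -0.27 and 0.06.

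The classes that pair in filaments had similar medians. The median log2 ratio was -0.02 for the 4 type I genes and 0.00 for the 3 type II genes, a difference of -0.02. The medians cover wider gaps, as Krt72 minus Krt71, both of type II, was -0.34. Against Krt71, the log2 ratios of its type I partners of all layers differed by 0.03 for Krt25, 0.06 for Krt27 and 0.12 for Krt28, with Krt71 the higher. In the cuticle, Krt72 minus Krt26 was -0.12 and Krt73 minus Krt26 was 0.15.

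The layers of the sheath were grouped after the values were seen. The 4 keratins described in all layers had log2 ratios between -0.05 and 0.06 with a median of 0.02. The 3 cuticle keratins had a median of -0.15, set by Krt26 between Krt72 and Krt73. Krt72 and Krt73, neighbours in the genome and both of the cuticle, differed by 0.27 in log2 ratio, more than the whole span of the keratins of all layers. The difference of 0.17 between the medians does not depend on a factor that scales a whole array, but it has no replicate check.

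The sign of the ratios depended on the scaling. With the arrays scaled to equal trimmed means, 3 of the 7 keratins had a ratio above 1. With equal medians it was 0 of 7, the median log2 ratio was -0.14 and that of all genes was -0.13. The spiked controls are RNAs added at hybridization, after the sample RNA was prepared, so that they do not track its amount. With equal spiked controls the count was 6 of 7, the median was 0.19 and that of all genes was also 0.19. The log2 ratio of Krt72 was under 0 with each of these scalings, at -0.41 with equal medians and -0.08 with the spiked controls.

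**Figure D3:**
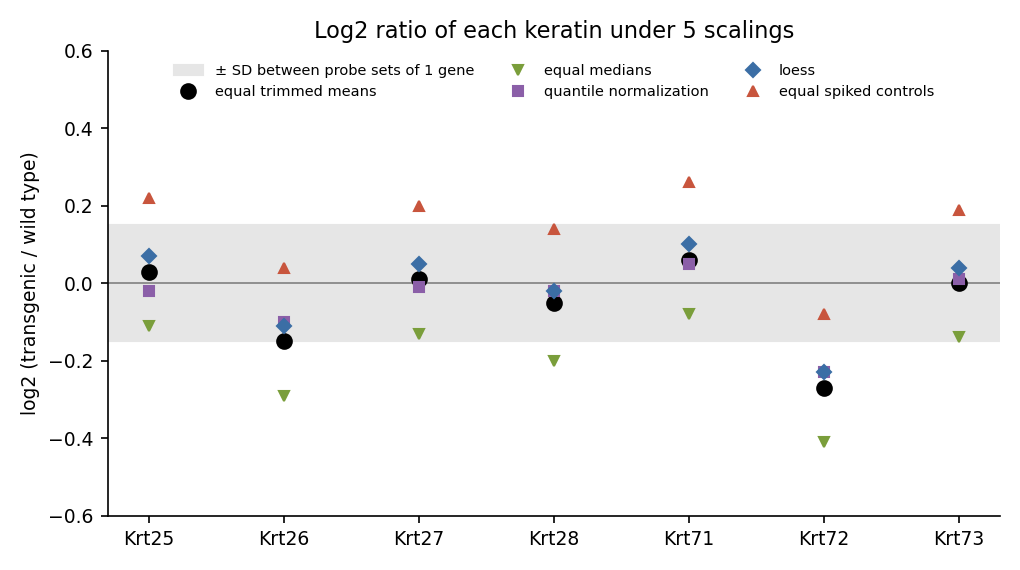
Log2 ratio of transgenic to wild type for each keratin with the arrays scaled in 5 ways (symbols); the grey band is plus or minus the SD of 0.15 between probe sets of 1 gene at this brightness. Krt72 is the lowest with each of the 5; equal medians lower and equal spiked controls raise all 7 genes.

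Other genes of the inner root sheath were compared through a list of 23 genes, of which 20 had a probe set of their own. Of these 20, 4 were lower by 2-fold or more in transgenic follicles and 0 higher, against 1.58% and 1.60% of all genes. The list was chosen with earlier results of these data known, so that the count is no test of sheath genes. The number lower was 2 with the mean over each gene's probe sets and 3 with equal spiked controls, with the floor at the 60th percentile or with a pseudocount. The median log2 ratio of the 20 was -0.03, close to the 0.00 of the keratins. It was also close to the 0.01 of all genes over the floor at least once, so that this closeness is not particular to the sheath. Nearest to the median of the keratins were Tchh, trichohyalin, the protein that binds the sheath's keratin filaments together as it hardens (5429 and 5454, log2 ratio 0.01), Tgm1, a transglutaminase that cross-links proteins (781 and 771, -0.02), and Gsdma, a gasdermin (1578 and 1559, -0.02). With 1 ratio per gene, this nearness is no measure of shared regulation.

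The 4 genes that passed 2-fold lay far below all 7 keratins. Dsc2, a desmosomal cadherin, had a log2 ratio of -2.15, which was 1.88 below that of Krt72. Tchhl1, a relative of trichohyalin, had -1.83, which was 1.56 below Krt72. Tgm3, the transglutaminase that acts on trichohyalin in the sheath, had -1.15, and Rptn, repetin, read 51 and 20.4 with -1.31. The other probe set of Dsc2 gave -2.04 and that of Tgm3 gave -0.70. The remaining Rptn probe sets were at or near the floor, with log2 ratios of 0.19 and 0.00. A gap between 2 genes on the same arrays does not move with a factor that scales a whole array.

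Other list members lay nearer the keratins. Gata3, a transcription factor of the sheath, read 589 and 542 (-0.12), and Padi3, which converts arginine of trichohyalin to citrulline, read 4462 and 4703 (0.08). Padi1, of the same enzyme family, read 758 and 425, and its log2 ratio of -0.84 was 0.57 below that of Krt72. These 3 were chosen after their values were seen. Several of the listed genes are also expressed in other epithelial layers of the follicle and skin, so that their signal is not the sheath's alone.

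**Figure D4:**
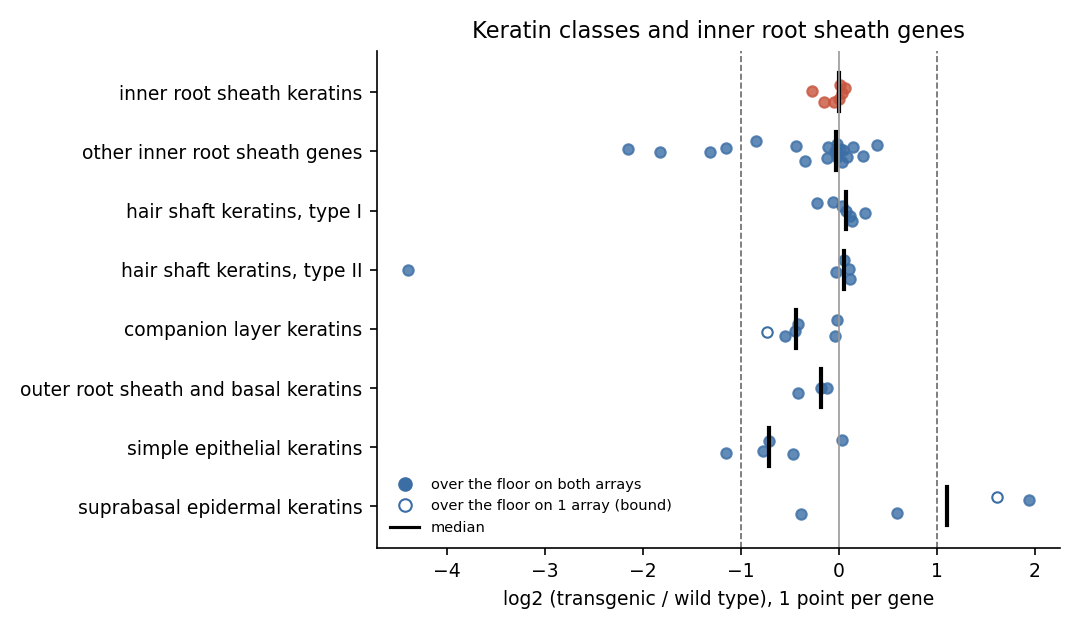
Log2 ratio of transgenic to wild type, 1 point per gene from its brightest probe set, for the inner root sheath keratins (red) and for other lists (blue), with black bars at the medians and dashed lines at 2-fold; open circles are bounds from genes above the floor on 1 array. The 7 inner root sheath keratins span -0.27 to 0.06, and the other inner root sheath genes reach -2.15.

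The hair shaft keratins, which build the shaft inside the sheath, had medians near those of the sheath keratins. The 7 measured type I genes had a median log2 ratio of 0.07, between -0.22 for Krt32 and 0.27 for Krt35. Of the 5 measured type II genes, Krt84 had -4.40, and the others lay between -0.03 and 0.11.

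Keratins listed for layers outside the sheath had lower medians, but Krt6a, Krt79, Krt5 and Krt14 lay within the span of the sheath keratins. Several of the listed keratins are dimmer than the sheath keratins. The SD between probe sets of a gene was 0.35 to 0.49 by tertile of signal, wider than the 0.15 at the sheath keratins' brightness. The companion layer is the single cell layer against the outside of the sheath. Of the 6 genes listed for it, ratios were under 1 in 6 of 6, against 48.7% of all genes. This list too was chosen with earlier results of these data known. As the sample is a bulk one, the signal of these genes cannot be assigned to the companion layer alone. The median log2 ratio of the 6 was -0.43, with Krt6a at -0.02 and Krt79 at -0.04 nearest to no difference. Krt6b was under the floor in transgenic follicles. Krt75, the keratin that defines the companion layer, read 4892 and 3648, a log2 ratio of -0.42, which was 0.15 below Krt72. Krt17 read 3940 and 2893 (-0.45), but its dim second probe set gave -0.04, and Krt16 read 260 and 177 (-0.55). The 3 outer root sheath and basal genes had a median of -0.18, with Krt15 at -0.42, Krt14 at -0.18 and Krt5 at -0.12. With the mean over each gene's probe sets these medians were -0.33 and -0.27. With equal spiked controls, which moved the median of all genes to 0.19, ratios under 1 numbered 4 of 6 in the companion layer and 1 of 3 in the outer root sheath list, against 28.2% of all genes. With equal medians they numbered 6 of 6 and 3 of 3, against 64.2%.

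The simple epithelial and suprabasal epidermal keratins were uneven, and most were dim. Of 6 simple epithelial keratins, Krt19 was 2-fold lower (83.2 and 37.4) and the median over the 5 above the floor was -0.71. Krt23, the brightest of them, read 1318 and 803, a log2 ratio of -0.71. Krt18 had -0.77 and Krt8 had -0.47, while Krt7, near the floor, had 0.03. Of 6 measured suprabasal epidermal keratins, Krt1 and Krt2 lay under the floor on both arrays. Krt77 read 16.6 and 63.8, and Krt78 read 10.1, just under the floor, and 32.3. Krt80 went the other way, at 1807 and 1382 with a log2 ratio of -0.39, and the signal summed over the list was 1995 and 1711.

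The genes of each class lie side by side in the genome. On mouse chromosome 11, Krt25, Krt26, Krt27 and Krt28 are consecutive keratin genes between Krt24, under the floor on both arrays, and Krt10, a keratin of the suprabasal epidermis, which read 150 and 225 with a log2 ratio of 0.59. On chromosome 15, Krt71, Krt72 and Krt73 lie between the basal keratin Krt5, which read 3943 and 3618 with a log2 ratio of -0.12, within the span of the sheath keratins, and the epidermal Krt2, under the floor on both arrays. The order of genes is that of the RefSeq table of GRCm38.p6, and the array values themselves carry no coordinates.

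**Figure D5:**
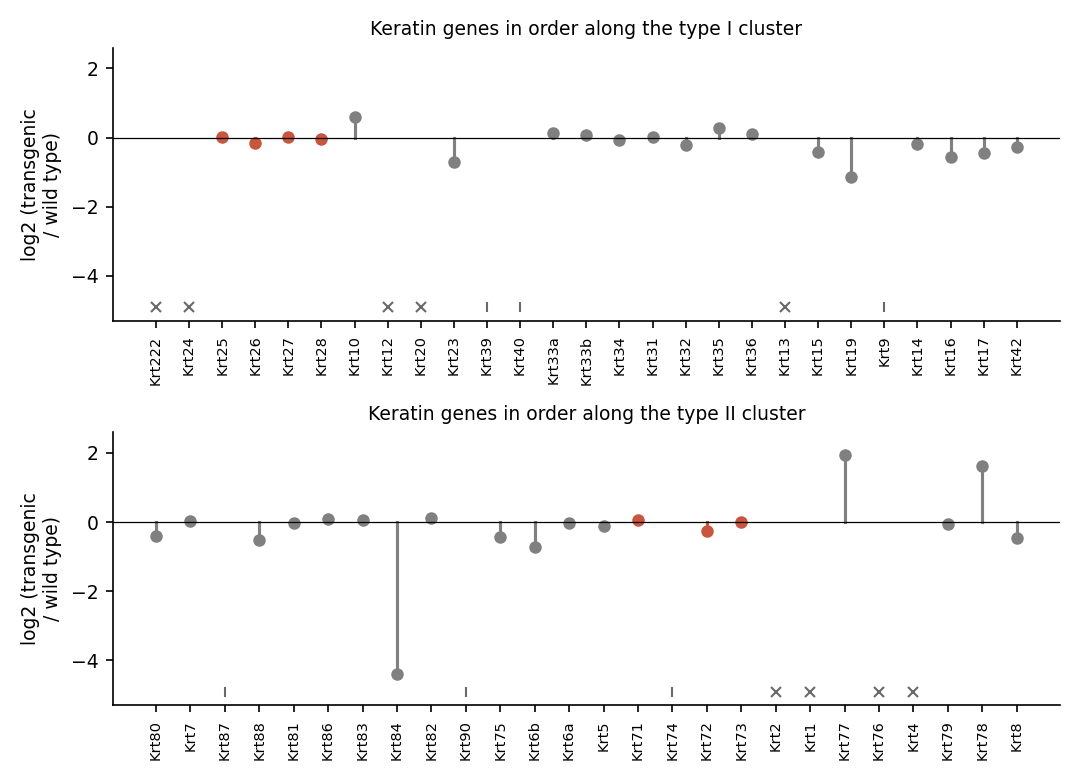
Log2 ratio of transgenic to wild type for keratin genes in their order along the type I cluster (top) and the type II cluster (bottom), spaced evenly; inner root sheath keratins are red, crosses mark genes under the floor on both arrays and ticks mark genes with no probe set of their own. The red points lie near 0, while Krt10 at 0.59, Krt84 at -4.40 and Krt77 at 1.94 stand away from it.

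Lists of other compartments gave the following beside the keratins. These lists too were chosen with earlier results of these data known. The 10 hair matrix and shaft regulators, genes active where the sheath and shaft arise, had ratios above 1 in 9, against 51.3% of all genes, and a median log2 ratio of 0.06, with Shh at 0.38 and Bmp4 at 0.37. With equal medians it was 4 of 10, against 35.8% of genes, with a median of -0.08, and with equal spiked controls 10 of 10, against 71.8%, with a median of 0.25. With the mean over probe sets the median was 0.22. The 7 measured proliferation markers had a median of 0.01, with Cdk1 at -0.25 and Ccna2 at 0.22. Their summed signals were 12033 and 12763 for the regulators and 5897 and 5905 for proliferation. At the brightest probe set 0 genes of either list were 2-fold apart, against 3.18% of all genes. The second probe set of Mcm2, a subunit of the replicative helicase, read 260 and 122, a log2 ratio of -1.10, beside 256 and 249 at the brighter one.

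Markers of other cell types were measured in the same way. Of 8 measured epidermal markers, 5 were above the floor on at least 1 array, with Krt1, Krt2 and Flg under it on both, and the summed signal was 3378 and 1144, most of it from Ivl (3110 and 683). The other 4 of these 5 had log2 ratios above 0, namely Krt77 (1.94), Krt78 (1.62, a bound), Lor (0.73) and Krt10 (0.59), and the list's median was 0.73. Summed signals were 8540 and 7794 for 6 sebocyte markers and 13997 and 12847 for 7 melanocyte markers. Single genes differed by more than these sums. Log2 ratios ran from -0.27 for Scd3 to 0.89 for the dim Mc5r among sebocyte markers. Among melanocyte markers they ran from -0.92 for Mc1r, with Mlana at -0.66, to 0.13 for Mitf. The sums were 221 and 231 for 7 dermal papilla markers, with Sox2 under the floor on both arrays. For 6 dermal fibroblast markers they were 2098 and 2916, with Dcn at 985 and 1590. Immune markers, 4 of 7 above the floor, summed to 65.4 and 126, with Ptprc, Cd3e and Cd207 under the floor on both arrays. Endothelial markers summed to 56.3 and 90.0, with Pecam1 under the floor, muscle markers to 109 and 132, with Ckm and Tnnt3 under it, and the 2 measured adipocyte markers to 144 and 92.0. The part of these differences in the keratin values was not tested.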

How the data were processed

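Total RNA of pooled follicles was measured on 2 Affymetrix mouse arrays. The values deposited by the authors are 1 linear intensity per probe set, with a 2% trimmed mean of 100 on each array, as the values show. The summary algorithm is not given in the sources used here. Of 45101 probe sets, 64 controls were left out, and 34945 of the others name 1 gene in the platform annotation. The transgenic array was multiplied by 0.9998 to equal trimmed means over the rest. The floor was set at the 40th percentile over the 2 columns together (10.5), and values under it were set to it before log2 ratios were taken. A gene with several probe sets was represented by its brightest. Called means both signals above the floor and at least 2-fold apart.

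Every probe set of the 7 genes was named, with the 3 other sheath genes nearest the keratins' median. From each other list, genes were to be named from the 4 of largest absolute log2 ratio. Not all of these are given in the text, and some further genes are. Members and lists were chosen with earlier results of these data known. Other scalings (loess span 0.3), floors at the 20th and 60th percentiles, a pseudocount, thresholds of 1.5-fold and 3-fold and the mean over probe sets were tried. The calling procedure was checked on simulated data, in genes well above the floor with changes well past or well under the threshold. That check does not cover dim genes or changes near 2-fold. Python 3.11.15, pandas 2.3.3, SciPy 1.17.1 and statsmodels 0.14.6 were used. Protein sequences were not analysed here. The number of arrays limits the precision.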

Additional observations from a re-analysis of the deposited data

How the results depend on the processing

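A value was taken as moved when it changed by more than 0.15 on the log2 scale, the SD between probe sets of a gene at the keratins' brightness, or, for a count, by over 1.5 times. Of 284 alternative values of 31 results, 244 did not move, some of them under settings that could hardly change the value. Equal medians lowered the median log2 ratio of the sheath keratins from 0.00 to -0.14, which stayed just inside the limit of 0.15. The count of sheath keratins 2-fold apart was 0 under all 10 alternatives, but several of these could not test it. A 3-fold threshold cannot add calls to 0 at 2-fold. Leaving out the rescaling removed only a factor of 0.9998. The other floors and the pseudocount left the keratins' log2 ratios as they were, as their signals were 408 to 1211 times the floor. With equal spiked controls the log2 ratios became 0.22 for Krt25, 0.04 for Krt26, 0.20 for Krt27, 0.14 for Krt28, 0.26 for Krt71, -0.08 for Krt72 and 0.19 for Krt73, with a median of 0.19. That scaling multiplies a whole array, and medians of other lists moved with it, to 0.17 for the other sheath genes, 0.26 and 0.24 for type I and type II hair shaft keratins, -0.24 for the companion layer, 0.01 for the outer root sheath and -0.52 for simple epithelial keratins. Sheath keratins with a ratio above 1 numbered 0 with equal medians and 6 with equal spiked controls, beside 3. The other sheath genes 2-fold lower numbered 2 at a 3-fold threshold and 2 with the mean over probe sets, beside 4. The median of the suprabasal keratins, 1.10, became 0.32 with a floor at the 20th percentile, 0.40 with one at the 60th and 0.80 with a pseudocount. By construction the floor sets which genes enter this median. The floor and the pseudocount also set the ratios of dim genes, such as Krt77 (16.6 and 63.8) and Krt78 (10.1 and 32.3). Leaving out each keratin in turn kept the median between -0.03 and 0.00. The thresholds for the other sheath genes and the alternatives for other lists, for the count above 1 and some for the type difference were added after the data were seen. No paired analysis was possible because each group has 1 array, so that no test between groups could be made.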
